A study of Mus musculus with 8 samples.

Results

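The 9 genes described here are grouped as inhibitory receptors of T cells. They are Ctla4, Lag3, Tigit, Btla, Pdcd1, Cd160, Havcr2, Entpd1 and Cd200, found by symbol and joined to a table of read counts by Entrez gene ID. All 9 were matched, out of 45777 genes in that table, and all 9 passed the filter on low counts that left 16750 genes for testing. Of these genes, Entpd1 encodes an enzyme of the cell surface and Cd200 a ligand, so the name receptor is exact only for the rest.

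The counts came from poly(A) RNA-seq of primary CD8+ T cells, which carry out the killing of infected cells and tumours. The cells were taken from lymph node and spleen of C57BL/6 mice, stimulated through the T cell receptor with antibodies to CD3 and CD28, and cultured for 48 hours with one of 3 compounds or vehicle. The 4 groups of 2 libraries were EnPGC-1, SGC-CBP30 (which blocks the acetyl-lysine reading domains, or bromodomains, of CBP and p300), Ctrl PIP (the compound named as a control) and the vehicle DMSO. All groups share the stimulus, so none shows resting cells, and the labels give neither doses nor the age of the mice. They do not say whether the 2 libraries of a group came from separate animals or cultures, so every p-value below reflects no more than the spread between the libraries at hand, and that spread may be technical.

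T cells are restrained by surface receptors that are induced when the cell is activated and that recruit phosphatases or compete for the ligands of activating receptors. Some are up within hours of stimulation, and several stay up together in T cells that meet antigen for a long time in chronic infection or tumours. PD-1 (Pdcd1) and CTLA-4 (Ctla4) are the targets of established checkpoint therapies, and LAG-3, TIM-3 (Havcr2) and TIGIT have been pursued as further targets.

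Total counts ranged from 38890043 to 55491261 per library. The replicates were unequally close. Between the 2 libraries of a group, the median difference over all genes tested was 0.56 on the log2 scale in EnPGC-1, 0.20 in SGC-CBP30, 0.20 in Ctrl PIP and 0.73 in DMSO. The first principal component carried 49.6% of the variance and set replicate 1 of EnPGC-1 (-109.7) and of DMSO (-68.9) apart from replicate 2 of EnPGC-1 (38.1) and of DMSO (89.6). The deviation of a gene from its mean went with the length of its transcript, across genes, in most libraries. Spearman's rho was 0.49 and -0.52 in the replicates of EnPGC-1, 0.54 and 0.48 in SGC-CBP30, -0.52 and -0.20 in Ctrl PIP, and 0.56 and -0.61 in DMSO. This trend separates the libraries of SGC-CBP30 from those of Ctrl PIP, and it separates the replicates within EnPGC-1 and within DMSO. The 10 CD8 T cell identity genes summed to between 4410 and 6150 CPM (counts scaled to the size of the library), against at most 73.8 CPM for 12 B cell markers and 66.9 CPM for 6 CD4 and regulatory T cell markers. Most of the 10, such as Cd3e, are shared with other T cells, so their sum does not measure CD8 T cells alone. Cd8a was at 904 to 1240 CPM and Cd8b1 at 663 to 1110 CPM, where Cd4 was at 4.54 to 14.1 CPM. In these bulk samples, fewer cells of a type and less RNA per cell cannot be told apart.

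Levels of different genes are compared here as CPM per kilobase of the longest annotated transcript. On that scale Ctla4 was the most abundant of the 9 in these cells, with a mean of 178 CPM per kilobase over the 8 libraries. With these lengths it made up 59.0% of the sum over the 9 genes and stood 3.87-fold above the next, and 98.0% of the 15420 genes with a known length had a lower level. Lag3 followed at 46.0, Tigit at 33.7, Btla at 14.7, Pdcd1 at 10.5, Cd160 at 10.5 and Cd200 at 7.11 CPM per kilobase. Entpd1 at 0.813 and Havcr2 at 0.523 CPM per kilobase were the lowest, and only 23.2% and 19.4% of genes had a lower level.

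Not every step of that order was wider than the spread over libraries. Ctla4 was above Lag3, Tigit above Btla, and Cd200 above Entpd1, with ranges over the 8 libraries that did not overlap. Lag3 and Tigit overlapped, although Lag3 was the higher in 7 of the 8 libraries. Btla was above Pdcd1 in 8 of 8 libraries with overlapping ranges, and Pdcd1 was above Cd160 in 4 of 8. The levels depend on the length chosen. With the shortest coding transcript, the means became 561 CPM per kilobase for Ctla4, 29.9 for Btla, 24.2 for Cd160 and 7.26 for Entpd1, and Ctla4 stood 12.2-fold above Lag3. Cd160 and Pdcd1 changed places and the rest of the order was kept, but Tigit and Btla then overlapped, as did Cd200 and Entpd1, while Entpd1 and Havcr2 did not.

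**Figure D1:**
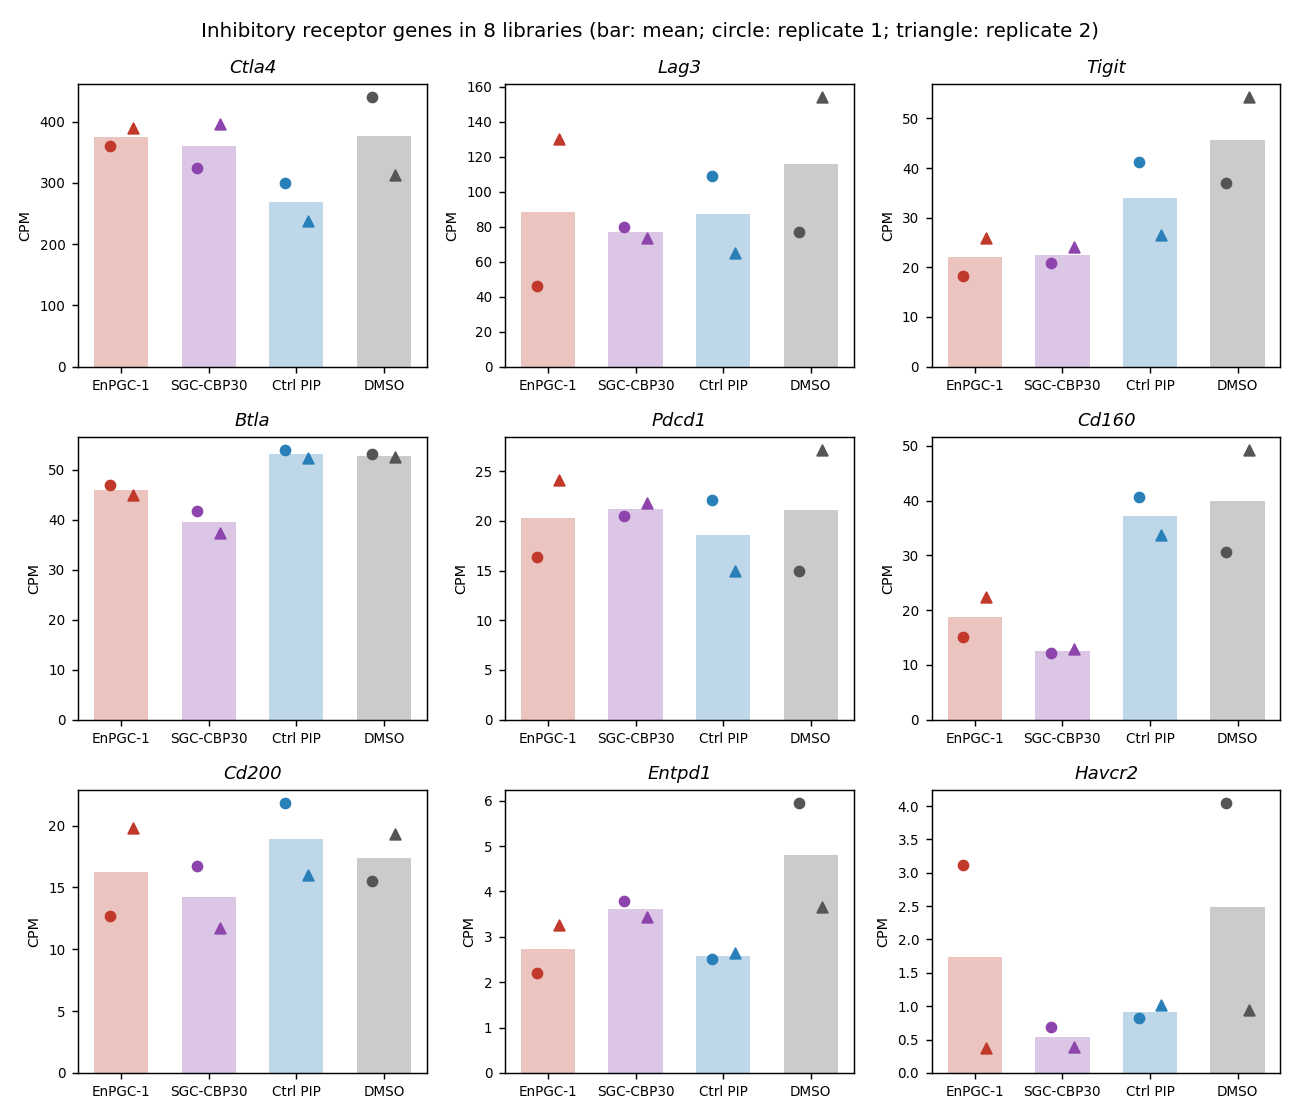
Levels of the 9 genes in CPM (vertical axis, from 0 and scaled for each gene) in the 4 groups (horizontal axis). Bars are group means, circles replicate 1 and triangles replicate 2. The libraries of EnPGC-1 and SGC-CBP30 lie below those of Ctrl PIP and DMSO for Cd160, Tigit and Btla, and in Havcr2 replicate 1 of EnPGC-1 (3.11 CPM) and of DMSO (4.04 CPM) stand above the other 6 libraries.

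Cd160 had the widest spread of group means among the 9 genes, with an SD of 0.80 on the log2 scale against 0.33 between replicates. It encodes a GPI-anchored receptor of cytotoxic lymphocytes that binds HVEM, and it lies on chromosome 3 (Entrez gene 54215, positions 96798763 to 96829351, minus strand, GRCm38.p6, the assembly called mm10). Its level was 15.1 and 22.4 CPM with EnPGC-1, 12.2 and 12.9 CPM with SGC-CBP30, 40.7 and 33.8 CPM with Ctrl PIP, and 30.7 and 49.2 CPM with DMSO. All 4 libraries of EnPGC-1 and SGC-CBP30 lay below all 4 of Ctrl PIP and DMSO, with 22.4 CPM as the highest value of EnPGC-1 and SGC-CBP30 and 30.7 CPM as the lowest of Ctrl PIP and DMSO. The means were 2.13-fold lower with EnPGC-1 and 3.19-fold lower with SGC-CBP30 than with DMSO.

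On the log2 scale, Cd160 differed by -1.09 (SE 0.31) between EnPGC-1 and DMSO and by -0.99 (SE 0.31) between EnPGC-1 and Ctrl PIP. For SGC-CBP30 the differences were -1.67 (SE 0.31) against DMSO and -1.57 (SE 0.31) against Ctrl PIP, and for Ctrl PIP against DMSO the difference was -0.10 (95% interval -0.83 to 0.62). None passed edgeR's quasi-likelihood test after Benjamini-Hochberg adjustment over all genes (adjusted p = 0.998, 0.812, 0.943, 0.871 and 1.00 in the order given), while the unadjusted p-values were 0.0103, 0.0156, 0.00128, 0.00177 and 0.749. DESeq2's Wald test called Cd160 lower with SGC-CBP30 against DMSO (adjusted p = 0.00105, with a range over all alternatives of 0.00105 to 1.00) and against Ctrl PIP (adjusted p = 0.00674, with a range of 0.00674 to 1.00). With offsets for transcript length and GC content, the log2 difference of Cd160 between SGC-CBP30 and Ctrl PIP was -1.43 (SE 0.20). EnPGC-1 and SGC-CBP30 differed by 0.58 (SE 0.30, 95% interval -0.15 to 1.31) with both EnPGC-1 libraries above both of SGC-CBP30 (edgeR adjusted p = 1.00).

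Tigit encodes the receptor that binds the poliovirus receptor PVR in competition with the activating receptor CD226 (Entrez gene 100043314, chromosome 16, positions 43626137 to 43665125, minus strand). It was at 18.2 and 25.9 CPM with EnPGC-1, 20.8 and 24 CPM with SGC-CBP30, 41.3 and 26.6 CPM with Ctrl PIP, and 37.0 and 54.3 CPM with DMSO. The libraries of EnPGC-1 and SGC-CBP30 were again the 4 lowest, but replicate 2 of Ctrl PIP, at 26.6 CPM, was close to replicate 2 of EnPGC-1. The log2 difference from DMSO was -1.05 (SE 0.32) with EnPGC-1, -1.03 (SE 0.32) with SGC-CBP30 and -0.43 (SE 0.32) with Ctrl PIP (edgeR adjusted p = 0.998, 0.943 and 1.00, and unadjusted p = 0.0152, 0.0166 and 0.225). Against Ctrl PIP the difference was -0.62 (SE 0.32) with EnPGC-1 and -0.60 (SE 0.32) with SGC-CBP30, and offsets for transcript length and GC content moved these to -0.32 (SE 0.23) and -0.20 (SE 0.23). Between EnPGC-1 and SGC-CBP30 the difference was -0.02 (95% interval -0.79 to 0.74).

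Btla, the second receptor for HVEM in the set, had close replicates and small differences (Entrez gene 208154, chromosome 16, positions 45223705 to 45252895, plus strand). It was at 47.0 and 44.9 CPM with EnPGC-1, 41.7 and 37.4 CPM with SGC-CBP30, 53.9 and 52.3 CPM with Ctrl PIP, and 53.2 and 52.5 CPM with DMSO. The 4 libraries of Ctrl PIP and DMSO lay within 52.3 to 53.9 CPM, above all others. The log2 difference of SGC-CBP30 was -0.42 (SE 0.17) from DMSO and -0.43 (SE 0.17) from Ctrl PIP, with edgeR adjusted p = 0.943 and 0.871 and unadjusted p = 0.0408 and 0.0384. With offsets for length and GC content, Btla differed by -0.37 (SE 0.16) between SGC-CBP30 and Ctrl PIP. In the edgeR fit of the 4 libraries of SGC-CBP30 and Ctrl PIP alone, Btla had an adjusted p of 0.0429 (range over its alternatives 0.0429 to 1.00). EnPGC-1 differed from DMSO by -0.20 (95% interval -0.60 to 0.19).

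Thus 3 of the 9 genes had all 4 libraries of EnPGC-1 and SGC-CBP30 below all 4 of Ctrl PIP and DMSO and none had them above, where 3.73% of all genes tested were separated in that direction and 2.98% in the other. This grouping of the libraries was chosen after the values were seen and carries no test, and EnPGC-1 and SGC-CBP30 are set against the same control libraries. Natural killer cells and B cells also express some of these genes. The 7 NK cell markers summed to 5.59 and 1.45 CPM with EnPGC-1, 2.72 and 2.63 CPM with SGC-CBP30, 4.78 and 7.86 CPM with Ctrl PIP, and 4.33 and 2.98 CPM with DMSO, and Klra4 was at 0 in every library. Fcgr3 alone was at 3.67 CPM in replicate 1 of EnPGC-1. Of the 6 NK markers tested, 4 overlapped in the grouping above, and 2 were lower with EnPGC-1 and SGC-CBP30. Both were low. Klra9 was at 0.239 to 0.427 CPM in these 4 libraries and 0.618 to 1.26 CPM in the other 4. Klrb1c was at 0 to 0.336 CPM and 0.553 to 2.2 CPM. The sum of the B cell markers was 73.3 and 61.9 CPM with EnPGC-1, 32.6 and 25.8 CPM with SGC-CBP30, 50.5 and 31.0 CPM with Ctrl PIP, and 73.8 and 50.5 CPM with DMSO. The CD4 and regulatory T cell markers summed to 54.2 and 29.8 CPM with EnPGC-1, 35.1 and 30.5 CPM with SGC-CBP30, 31.7 and 39.2 CPM with Ctrl PIP, and 66.9 and 24.9 CPM with DMSO. The part of these cells in the values of Cd160, Btla and Tigit was not tested.

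The promoters of these 3 genes are shown because their levels were separated in the same libraries. Each window runs from 250 bases before to 50 bases after an annotated start, 5′ to 3′ on the gene's strand, from RefSeq on GRCm38.p6 (mm10). Of the 9 genes, 8 had at least 1 window, with 10 windows in all and 2 for Cd160. Capitals mark matches, on either strand, to RUNX (TGTGGT), NFAT (GGAAAA), T-box (GGTGTGA), E-box (CACGTG) or GC box (GGGCGG) letters.
Tigit, chr16:43664135-43664434, minus strand: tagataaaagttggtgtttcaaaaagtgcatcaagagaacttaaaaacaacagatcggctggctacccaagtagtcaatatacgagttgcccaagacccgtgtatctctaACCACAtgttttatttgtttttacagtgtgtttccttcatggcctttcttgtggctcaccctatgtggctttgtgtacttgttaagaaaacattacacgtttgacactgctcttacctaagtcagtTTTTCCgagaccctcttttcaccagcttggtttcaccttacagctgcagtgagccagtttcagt
Cd160 window 1, chr3:96829302-96829601, minus strand: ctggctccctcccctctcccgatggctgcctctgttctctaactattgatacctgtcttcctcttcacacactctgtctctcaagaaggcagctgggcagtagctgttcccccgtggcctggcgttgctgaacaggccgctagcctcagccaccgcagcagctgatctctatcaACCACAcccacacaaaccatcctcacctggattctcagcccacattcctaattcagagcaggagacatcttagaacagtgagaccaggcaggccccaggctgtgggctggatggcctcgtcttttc
Cd160 window 2, chr3:96814472-96814771, minus strand: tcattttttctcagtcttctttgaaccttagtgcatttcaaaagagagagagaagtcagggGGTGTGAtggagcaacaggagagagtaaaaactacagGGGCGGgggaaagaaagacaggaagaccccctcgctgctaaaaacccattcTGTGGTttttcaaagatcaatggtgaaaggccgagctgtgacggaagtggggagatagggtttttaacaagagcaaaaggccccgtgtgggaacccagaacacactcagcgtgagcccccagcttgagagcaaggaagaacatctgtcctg
Btla, chr16:45224087-45224386, plus strand: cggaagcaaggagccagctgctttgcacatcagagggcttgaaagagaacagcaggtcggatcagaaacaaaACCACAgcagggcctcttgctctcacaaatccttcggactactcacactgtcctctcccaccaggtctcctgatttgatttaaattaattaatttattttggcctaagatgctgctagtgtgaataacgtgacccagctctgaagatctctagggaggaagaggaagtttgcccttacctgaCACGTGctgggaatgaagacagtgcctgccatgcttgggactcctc

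All 4 of these windows hold the RUNX letters, whose protein family is known for control of cytotoxic T cell genes, as do 6 of the 10 windows of the 9 genes and 16.8% of 32851 windows of that length in the genome. The second window of Cd160 also holds a T-box match (3.98% of all windows) and a GC box (35.7%), the window of Tigit an NFAT match (23.4%), and that of Btla an E-box (7.15%). Letters for AP-1 (TGANTCA), NF-kB, ETS (CCGGAAG) and a TATA box (TATAAA) were searched as well and are in none of these 4 windows. A match is a description of the letters and not a bound site. Tigit, Btla and Cd200 lie on chromosome 16, with 129.2 kilobases between Btla and Cd200 and 1558.6 kilobases between Tigit and Btla.

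Ctla4 encodes the receptor that competes with CD28 for CD80 and CD86 (Entrez gene 12477, chromosome 1, positions 60909025 to 60915832, plus strand). It was at 360 and 389 CPM with EnPGC-1, 324 and 396 CPM with SGC-CBP30, 299 and 237 CPM with Ctrl PIP, and 440 and 313 CPM with DMSO. Ctrl PIP was the lowest group, and both its libraries were below the 6 others. Its log2 difference from DMSO was -0.49 (SE 0.25), and that of EnPGC-1 from Ctrl PIP was 0.48 (SE 0.25), neither past the test (edgeR adjusted p = 1.00 and 0.812). EnPGC-1 and DMSO overlapped, with a difference of -0.01 (95% interval -0.61 to 0.60). In the same cells, the ratio of Ctla4 to Cd28 in CPM per kilobase of the longest transcript was 3.77 and 2.88 with EnPGC-1, 2.16 and 2.31 with SGC-CBP30, 2.04 and 2.01 with Ctrl PIP, and 4.0 and 2.67 with DMSO. This ratio depends on the lengths chosen. In CPM alone, Ctla4 was above Cd28 in both libraries of EnPGC-1 and of DMSO and below it in both of Ctrl PIP. With SGC-CBP30 it was below Cd28 in replicate 1 and above it in replicate 2.

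Pdcd1 encodes PD-1, which recruits phosphatases to the activated T cell receptor and to CD28 (Entrez gene 18566, chromosome 1, positions 94038305 to 94052553, minus strand). It was at 16.4 and 24.1 CPM with EnPGC-1, 20.5 and 21.8 CPM with SGC-CBP30, 22.1 and 15.0 CPM with Ctrl PIP, and 15.0 and 27.1 CPM with DMSO. The DMSO libraries alone covered nearly the whole range, and no group stood apart from another. The SD between replicates was 0.41 on the log2 scale against an SD of 0.09 between the group means. The log2 difference of EnPGC-1 from DMSO had a 95% interval of -0.93 to 0.81, so differences of either sign within that interval remain possible.

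Lag3, whose product binds MHC class II, varied most between replicates after Havcr2 (Entrez gene 16768, chromosome 6, positions 124904359 to 124912434, minus strand). It was at 46.1 and 130 CPM with EnPGC-1, 79.6 and 73.7 CPM with SGC-CBP30, 109 and 65.1 CPM with Ctrl PIP, and 77 and 154 CPM with DMSO. The 2 libraries of EnPGC-1 were 1.5 log2 units apart and those of DMSO 1.00, and the high library was replicate 2 in both groups. The log2 difference from DMSO was -0.39 (SE 0.55) with EnPGC-1, -0.59 (SE 0.56) with SGC-CBP30 and -0.41 (SE 0.56) with Ctrl PIP (edgeR adjusted p = 0.998, 0.943 and 1.00). The trend on transcript length has opposite signs in the replicates of EnPGC-1 and of DMSO and in SGC-CBP30 and Ctrl PIP. With offsets for length and GC content the differences from DMSO were -0.28 (SE 0.45), -0.40 (SE 0.45) and -0.39 (SE 0.45).

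Cd200 encodes a membrane glycoprotein that engages the inhibitory receptor CD200R, mainly on myeloid cells (Entrez gene 17470, chromosome 16, positions 45382111 to 45409060, minus strand). It was at 12.7 and 19.8 CPM with EnPGC-1, 16.7 and 11.7 CPM with SGC-CBP30, 21.8 and 16 CPM with Ctrl PIP, and 15.5 and 19.3 CPM with DMSO. The groups overlapped in each of the 6 comparisons. Its widest log2 difference, of SGC-CBP30 from Ctrl PIP, was -0.41 (SE 0.32, edgeR adjusted p = 0.871).

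Entpd1 encodes CD39, which degrades extracellular ATP towards AMP, the substrate from which CD73 makes adenosine (Entrez gene 12495, chromosome 19, positions 40612366 to 40741602, plus strand). It was low, at 2.21 and 3.27 CPM with EnPGC-1, 3.79 and 3.43 CPM with SGC-CBP30, 2.52 and 2.64 CPM with Ctrl PIP, and 5.94 and 3.65 CPM with DMSO. Both libraries of EnPGC-1 and both of Ctrl PIP were below both of DMSO, while SGC-CBP30 overlapped with DMSO. The log2 difference from DMSO was -0.81 (SE 0.38) with EnPGC-1, -0.41 (SE 0.37) with SGC-CBP30 and -0.89 (SE 0.38) with Ctrl PIP (edgeR adjusted p = 0.998, 0.943 and 1.00, and unadjusted p = 0.0714, 0.312 and 0.0513). Entpd1 overlaps 3 annotated genes on its own strand, Ctla4 a processed pseudogene on its strand, and Cd160 shares 68 bases with Pdzk1 on the opposite strand. The rules for overlaps and strand in counting were not given in the sources used here, so these counts may be shared.

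Havcr2 encodes TIM-3, a receptor of terminally differentiated T cells and of regulatory T cells (Entrez gene 171285, chromosome 11, positions 46454931 to 46481255, plus strand). It was at 3.11 and 0.371 CPM with EnPGC-1, 0.681 and 0.392 CPM with SGC-CBP30, 0.820 and 1.02 CPM with Ctrl PIP, and 4.04 and 0.948 CPM with DMSO. The highest library was 10.9-fold above the lowest, and the 2 high libraries, with 128 counts in EnPGC-1 and 170 in DMSO, were each replicate 1 of their group. The other 6 libraries held 20 to 53 counts. The log2 difference from DMSO was -0.52 (SE 1.04) with EnPGC-1, -2.21 (SE 1.09) with SGC-CBP30 and -1.43 (SE 1.06) with Ctrl PIP, none past edgeR's adjusted threshold (adjusted p = 0.998, 0.943 and 1.00). Both SGC-CBP30 libraries were below both of DMSO and both of Ctrl PIP.

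The genes nearest to Havcr2 were high in the same libraries, which follows from how they were picked. Nearness was the root-mean-square difference of log2 CPM, each centred on its mean over the 8 libraries, among 12651 genes with a mean of at least 1 CPM. Klrb1f, a lectin-like receptor gene, was nearest (0.26 log2 units) and Lrrc32, which encodes the TGF-beta docking receptor of regulatory T cells, was next (0.42), where Havcr2 itself deviated from its mean by 1.13. Foxp3, the transcription factor of regulatory T cells, was at 13.8 and 1.62 CPM with EnPGC-1, 3.55 and 2.11 CPM with SGC-CBP30, 1.76 and 2.25 CPM with Ctrl PIP, and 9.46 and 0.198 CPM with DMSO. Its 2 highest libraries were those of Havcr2. In replicate 1 of EnPGC-1 and of DMSO, Cd4 was at 10.4 and 14.1 CPM, against 4.54 to 8.10 CPM in the other 6 libraries. Of the 6 CD4 and regulatory T cell markers, Foxp3, Lrrc32, Cd4 and Ikzf4 were at their highest in these 2 libraries, and Lrrc32 is also a gene picked by nearness. The other two were not, since Zbtb7b was at its lowest in replicate 1 of EnPGC-1 (5.12 CPM) and its highest in that of DMSO (13.2 CPM), and Cd40lg, at 1.43 and 1.90 CPM, had replicate 1 of SGC-CBP30 (1.62 CPM) and replicate 2 of Ctrl PIP (1.46 CPM) between them. Myeloid cells express TIM-3 as well, and 12 myeloid and dendritic cell markers summed to 24.3 and 7.84 CPM with EnPGC-1, 9.92 and 8.97 CPM with SGC-CBP30, 9.20 and 11.3 CPM with Ctrl PIP, and 11.3 and 10.7 CPM with DMSO. The 6 erythroid and platelet markers summed to 42.0 and 11.2 CPM with EnPGC-1, 9.88 and 1.90 CPM with SGC-CBP30, 6.26 and 4.55 CPM with Ctrl PIP, and 21.3 and 7.07 CPM with DMSO. The part of RNA from these other cells in the values of Havcr2 was not tested.

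**Figure D2:**
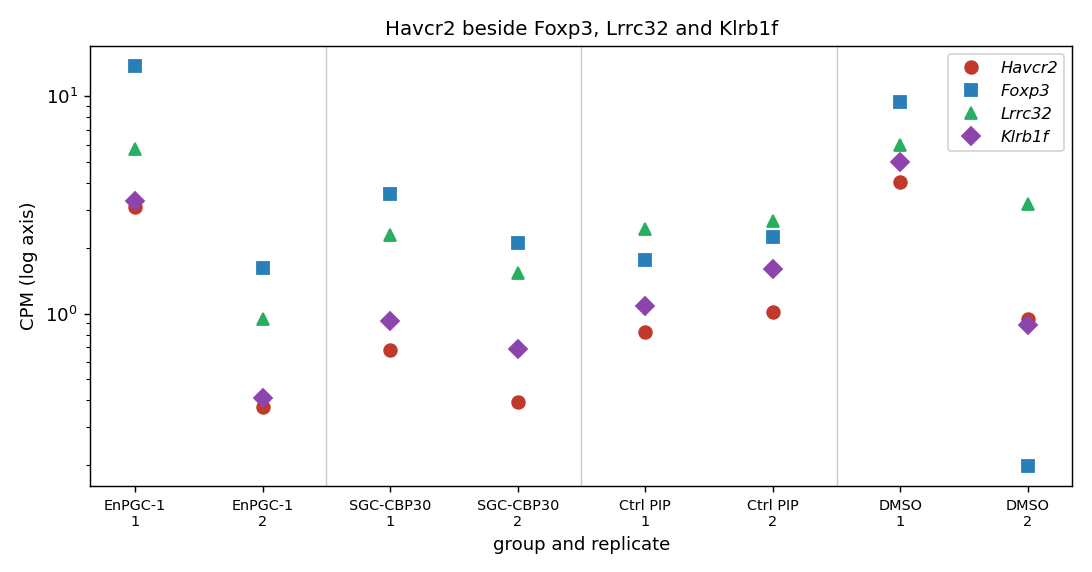
Havcr2, Foxp3, Lrrc32 and Klrb1f in CPM (vertical axis, logarithmic) in each of the 8 libraries (horizontal axis), 1 symbol per gene. All 4 genes are at their highest in replicate 1 of EnPGC-1 and of DMSO, where Foxp3 was at 13.8 and 9.46 CPM. Lrrc32 and Klrb1f were picked for their nearness to Havcr2 over these same libraries.

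The same measure named the genes closest to the other members. Tigit was closest to Bhlhe40 (0.12 log2 units) and Egr3 (0.13), which encode transcription factors induced by T cell receptor signals. Bhlhe40 was at 28.7 and 36.8 CPM with EnPGC-1, 29.4 and 36.5 CPM with SGC-CBP30, 66.9 and 41.6 CPM with Ctrl PIP, and 48.1 and 91.7 CPM with DMSO. Cd160 was closest to BC035044 (0.12) and Samd3 (0.13), and Samd3 was at 14.1 and 21.6 CPM with EnPGC-1, 8.71 and 12.2 CPM with SGC-CBP30, 36.0 and 29.5 CPM with Ctrl PIP, and 28.4 and 40.2 CPM with DMSO. Btla was closest to Tgfb1 (0.06), which encodes the cytokine TGF-beta 1, and to Psen2 (0.07). Lag3 was closest to Rps12 (0.15), a gene of the small ribosomal subunit, and to Pam16 (0.15). Pdcd1 was closest to Grn (0.06) and Gzf1 (0.07), Ctla4 to Lysmd4 (0.13) and Stx7 (0.13), Entpd1 to Kcnk6 (0.23) and Gm9833 (0.23), and Cd200 to Kank3 (0.13) and Lzts2 (0.13). No member was among the 2 nearest genes of another, and the closest pair of members was Btla and Cd200 (0.24). Btla deviated from its own mean by 0.18 and Cd200 by 0.29, so this distance is wider than the whole spread of Btla.

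The 6 comparisons can be read over all 9 genes. edgeR's quasi-likelihood test with Benjamini-Hochberg adjustment called 0 of the 9 genes and 0% of all genes tested in each of them, so the counts below rest on unadjusted p-values and on libraries that do not overlap (both libraries of a group above, or both below, those of the group they are set against). For EnPGC-1 against DMSO, all 9 differences were below 0 and the median was -0.39 on the log2 scale, against 0.00 over all genes. Ctla4 (-0.01) and Pdcd1 (-0.06) were close to 0 and among those that changed sign in other settings. The median ranged from -0.45 to -0.22 with libraries left out, and was -0.18 with limma on the authors' regularized log2 values. Cd160 and Tigit had an unadjusted p under 0.05, 2 of 9 lower, where 1.81% of all genes were lower at that level and 0.8% higher (304 and 134 genes). The libraries did not overlap for 4 of 9, all lower (Cd160, Tigit, Btla and Entpd1), where 9.24% of all genes were lower and 9.83% higher in this way. DESeq2 called 18 genes in this comparison and none of the 9.

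For EnPGC-1 against Ctrl PIP the median was 0.02, against 0.05 over all genes. Cd160 alone had an unadjusted p under 0.05 (1 of 9 lower, where 2.77% of all genes were lower and 1.71% higher, 464 and 286 genes). The libraries did not overlap for Cd160, Tigit and Btla, which were lower, and for Ctla4, which was higher, where 21.7% of all genes were lower and 20.7% higher without overlap. DESeq2 called 38 genes and none of the 9. For EnPGC-1 against SGC-CBP30 the median was 0.19, against 0.02 over all genes, and none of the 9 had an unadjusted p under 0.05 (1.1% of all genes, 184 of them, were higher and 0.931%, 156 genes, lower). Cd160 and Btla were higher and Entpd1 lower without overlap (13.2% of all genes higher and 14.7% lower), and DESeq2 called 16 genes and none of the 9.

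For SGC-CBP30 against DMSO, 8 of 9 differences were below 0, with a median of -0.42 against -0.03 over all genes. Cd160, Tigit and Btla had an unadjusted p under 0.05 (3 of 9 lower, where 2.82% of all genes were lower and 1.57% higher, 472 and 263 genes). The libraries did not overlap for 4 of 9, all lower (Cd160, Tigit, Btla and Havcr2), where 14.4% of all genes were lower and 16.2% higher in this way. DESeq2 called 63 genes, and Cd160 was the member among them. For SGC-CBP30 against Ctrl PIP the median was -0.41 against 0.01 over all genes, with 2 of 9 lower at an unadjusted p under 0.05 (Cd160 and Btla, where 2.56% of all genes were lower and 1.43% higher, 429 and 239 genes). The libraries did not overlap for 4 that were lower and for Ctla4 and Entpd1, which were higher (30.2% of all genes lower and 31.5% higher). DESeq2 called 31 genes, Cd160 among them, and the edgeR fit of these 4 libraries alone called 2470 genes, with Cd160 (adjusted p = 0.00868, range over its alternatives 0.00674 to 1.00) and Btla among them.

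For Ctrl PIP against DMSO, 7 of 9 differences were below 0 and the median was -0.41, against -0.05 over all genes. This median hung on single libraries, with a range of -0.65 to 0.01 when libraries were left out, and was -0.23 with limma. None of the 9 had an unadjusted p under 0.05 (0.364% of all genes were lower and 0.233% higher, 61 and 39 genes), and Ctla4 and Entpd1 were lower without overlap (2 of 9, where 7.83% of all genes were lower and 8.34% higher in this way). DESeq2 called 2 genes and none of the 9. All comparisons with DMSO use the same 2 DMSO libraries, so their medians are not independent of one another. Over all 4 groups at once, 2 of the 9 genes had an unadjusted p under 0.05, where 2.47% of all genes did (413 genes). They were Cd160 and Tigit, with adjusted p = 1.00 for both in edgeR's quasi-likelihood test and unadjusted p = 0.00358 for Cd160 and 0.0371 for Tigit. DESeq2's likelihood ratio test over the 4 groups called 87 genes, with Cd160 as the only member (adjusted p = 0.00112, range over its alternatives 0.00112 to 1.00). limma on the authors' regularized log2 values called 0 genes in each comparison.

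**Figure D3:**
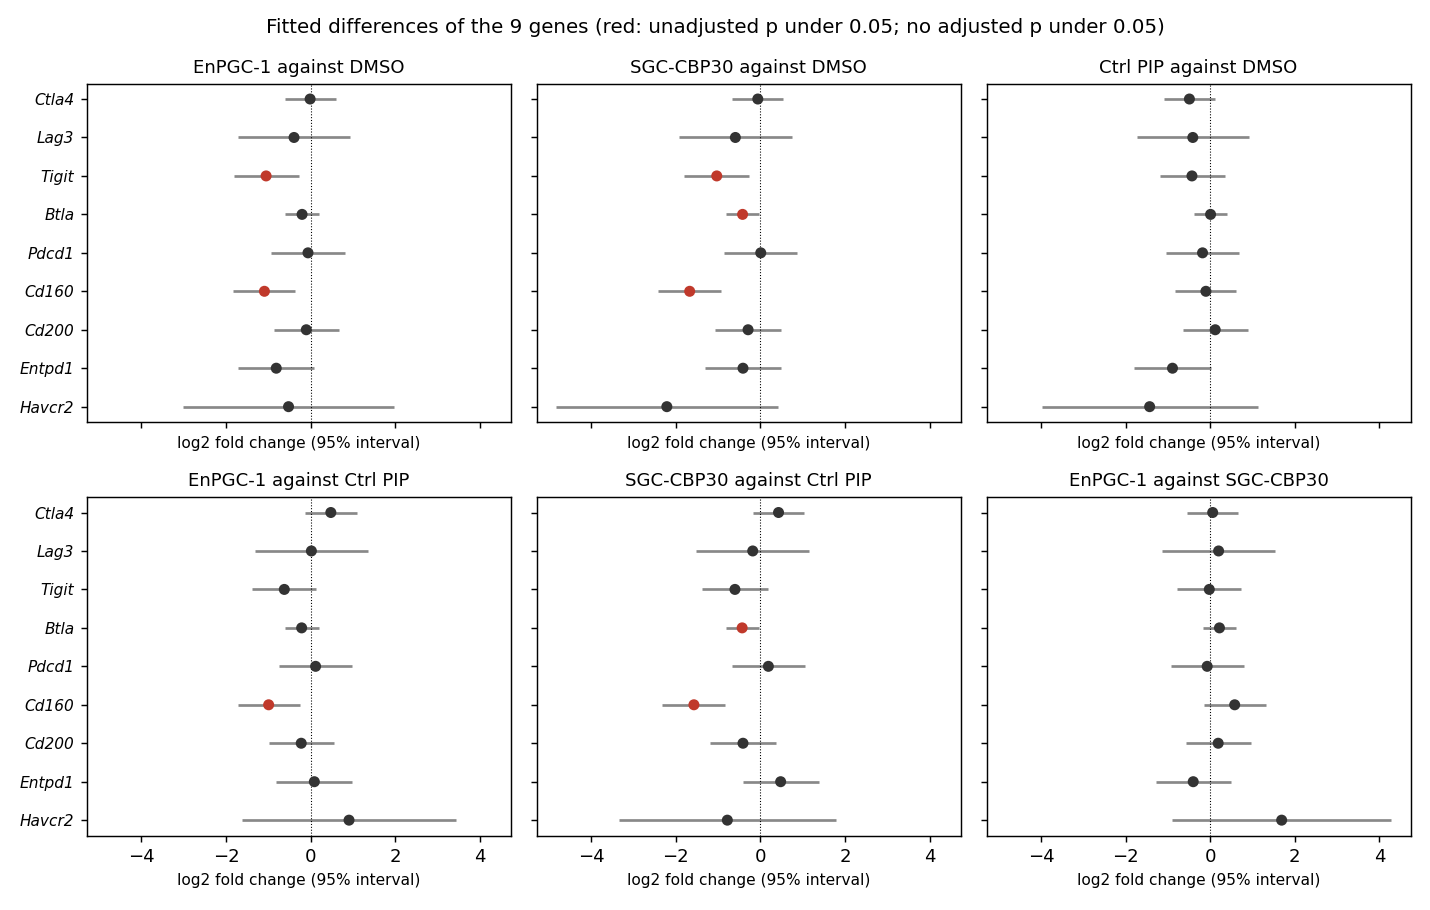
Log2 fold changes of the 9 genes from edgeR's fit (horizontal axis) with 95% intervals, for the 6 comparisons, 1 row per gene. Red points have an unadjusted p under 0.05 and none has an adjusted p under 0.05. Cd160 is red in 4 panels, with -1.67 for SGC-CBP30 against DMSO as its widest difference, and the intervals of Havcr2 are the widest of the 9.

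Without replicate 1 of both EnPGC-1 and DMSO, the log2 difference of Cd160 in EnPGC-1 against DMSO was -1.13. In SGC-CBP30 against DMSO the differences were -1.97 for Cd160, -1.27 for Tigit and -1.01 for Lag3. Without replicate 2 of both, the differences in EnPGC-1 against Ctrl PIP were -1.31 for Cd160, -0.9 for Tigit and 1.75 for Havcr2. Havcr2 differed by 2.53 in EnPGC-1 against SGC-CBP30. In Ctrl PIP against DMSO the differences were -2.12 for Havcr2 and -1.2 for Entpd1. These fits leave 1 library of EnPGC-1 and 1 of DMSO, and assume that it varies like the other groups. The genes named here are those that edgeR called in these fits. The same fits called many of all genes, as given below for left-out libraries. A call in them therefore does not set a member apart from other genes.

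Among the ligands, 13 of 14 genes were tested and Fgl1 was not. The most abundant were Hmgb1, a chromatin protein that also binds TIM-3, and Tnfrsf14, which encodes HVEM, the shared ligand of Cd160 and Btla. Tnfrsf14 was at 293 and 223 CPM with EnPGC-1, 244 and 203 CPM with SGC-CBP30, 179 and 191 CPM with Ctrl PIP, and 276 and 130 CPM with DMSO, with overlap in each comparison with DMSO. Pdcd1lg2, which encodes the PD-1 ligand PD-L2, was at 1.24 and 0.836 CPM with EnPGC-1, 1.49 and 1.62 CPM with SGC-CBP30, 3.46 and 4.32 CPM with Ctrl PIP, and 3.85 and 4.11 CPM with DMSO. Its log2 difference from DMSO was -1.94 (SE 0.37) with EnPGC-1 and -1.35 (SE 0.36) with SGC-CBP30 (edgeR adjusted p = 0.998 and 0.943, unadjusted p = 0.00128 and 0.00745). Cd80, the ligand of CTLA-4 and CD28, was at 2.38 and 1.47 CPM with EnPGC-1, 0.607 and 1.12 CPM with SGC-CBP30, 3.48 and 1.87 CPM with Ctrl PIP, and 2.97 and 4.39 CPM with DMSO. The median of the 13 was 0.04 with EnPGC-1 and -0.27 with SGC-CBP30 against DMSO, and at an unadjusted p under 0.05 there were 1 lower and 1 higher with EnPGC-1 (1.81% of all genes lower and 0.8% higher) and 2 lower with SGC-CBP30 (2.82% lower and 1.57% higher). B cells and myeloid cells express PD-L2 and CD80 too, and the part of the B cell markers given above in these values was not tested.

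Of 14 other inhibitory receptors, 13 were below 0 in SGC-CBP30 against DMSO, with a median of -0.71, and 6 had an unadjusted p under 0.05 (Lair1, Cd244a, Klrc1, Cd5, Lilrb4a and Cd72), where 2.82% of all genes were lower at that level. None passed the adjusted test. The collagen receptor Lair1 was at 4.71 and 4.79 CPM with EnPGC-1, 4.27 and 3.92 CPM with SGC-CBP30, 6.48 and 5.97 CPM with Ctrl PIP, and 7.23 and 7.17 CPM with DMSO. Cd244a, a receptor of NK and memory T cells, had no counts in either SGC-CBP30 library and 0.333 and 0.375 CPM with DMSO, at least 6.37-fold lower when 3 counts per library are taken as the floor. Cd5, which damps T cell receptor signals, was at 174 and 163 CPM with SGC-CBP30 and 238 and 236 CPM with DMSO. Cd72 and Lilrb4a are known from B cells and myeloid cells. The part of the B cell markers, whose sums with SGC-CBP30 and DMSO are given above, in these values was not tested. Against SGC-CBP30, all 14 were higher in sign with EnPGC-1, with a median of 0.50, and 1 (Cd244a) had an unadjusted p under 0.05, where 1.1% of all genes were higher at that level. Cd244a was at only 0.413 and 0.0557 CPM with EnPGC-1, and the lower value is near the floor of 3 counts. Klrg1 and Pirb, also among the 14, had libraries without counts. The most abundant of the list, Cd6 and Vsir, differed from DMSO by 0.02 (SE 0.22) and 0.31 (SE 0.32) with EnPGC-1 and by -0.26 (SE 0.22) and 0.02 (SE 0.32) with SGC-CBP30.

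**Figure D4:**
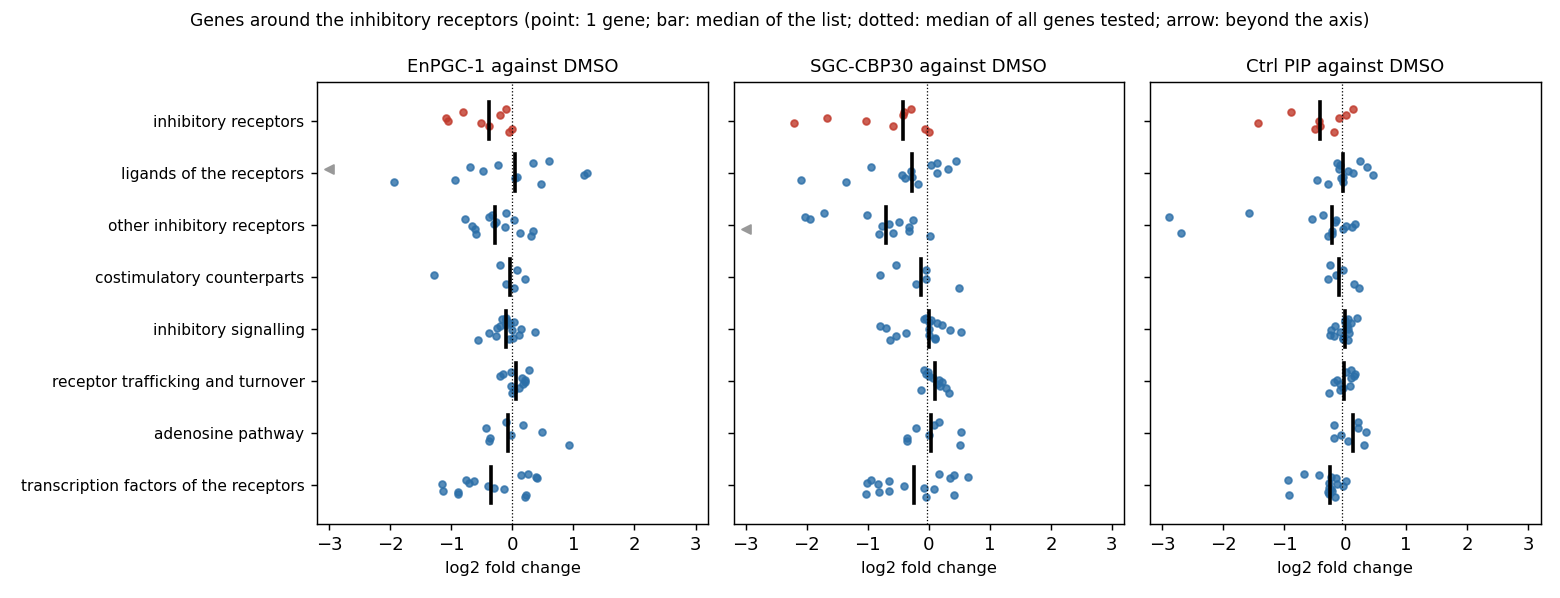
Log2 fold changes against DMSO (horizontal axis) for EnPGC-1, SGC-CBP30 and Ctrl PIP, 1 point per gene, for the 9 inhibitory receptors (red) and 7 lists of related genes (blue). Bars are list medians, the dotted line is the median of all genes tested and arrows mark genes beyond the axis. The other inhibitory receptors have a median of -0.29 with EnPGC-1, -0.71 with SGC-CBP30 and -0.21 with Ctrl PIP.

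Of 16 transcription factors known to act on these genes in T cells, 2 were lower at an unadjusted p under 0.05 with EnPGC-1 against DMSO (1.81% of all genes lower and 0.8% higher) and 2 with SGC-CBP30 (2.82% lower and 1.57% higher), and none was higher. Eomes, a T-box factor of cytotoxic and memory T cells, was at 48.4 and 40.0 CPM with EnPGC-1, 41.7 and 45.1 CPM with SGC-CBP30, 69.9 and 68.5 CPM with Ctrl PIP, and 63.7 and 73.1 CPM with DMSO. Irf4, which rises with the strength of the T cell receptor signal, was at 24.6 and 38.7 CPM with EnPGC-1, 40.1 and 39.6 CPM with SGC-CBP30, 68.4 and 60.1 CPM with Ctrl PIP, and 52.8 and 88.4 CPM with DMSO. These were the 2 of the 16 factors for which the 4 libraries of EnPGC-1 and SGC-CBP30 were all below the 4 others, where 3.73% of all genes were separated in that direction and 2.98% in the other. The log2 difference from DMSO was -0.63 (SE 0.19) with EnPGC-1 and -0.66 (SE 0.19) with SGC-CBP30 for Eomes, and -1.16 (SE 0.32) and -0.83 (SE 0.32) for Irf4 (edgeR adjusted p = 0.998 with EnPGC-1 and 0.943 with SGC-CBP30 for both genes). Tcf7, a factor of naive and memory cells and the most abundant of the list, was at 2110 and 1810 CPM with EnPGC-1, 1940 and 1830 CPM with SGC-CBP30, 1300 and 1390 CPM with Ctrl PIP, and 1930 and 1040 CPM with DMSO. Nfatc1 overlapped with DMSO in every group. The median of the 16 was -0.35, -0.24 and -0.25 against DMSO with EnPGC-1, SGC-CBP30 and Ctrl PIP.

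Of 6 activating counterparts of the receptors, 1 (Tnfsf14) was lower at an unadjusted p under 0.05 with EnPGC-1 against DMSO (1.81% of all genes lower) and none with SGC-CBP30 (2.82% lower). Cd28 was at 214 and 304 CPM with EnPGC-1, 337 and 386 CPM with SGC-CBP30, 329 and 266 CPM with Ctrl PIP, and 247 and 263 CPM with DMSO, so SGC-CBP30 was the highest group. Cd27 differed from DMSO by 0.08 (SE 0.21) with EnPGC-1 and -0.05 (SE 0.21) with SGC-CBP30. Tnfsf14, which encodes LIGHT, the activating ligand of HVEM, was at 2.94 and 4.88 CPM with EnPGC-1, 5.87 and 5.02 CPM with SGC-CBP30, 8.4 and 8.71 CPM with Ctrl PIP, and 7.35 and 11.6 CPM with DMSO. Its log2 difference from DMSO was -1.28 (SE 0.36) with EnPGC-1 and -0.80 (SE 0.36) with SGC-CBP30 (edgeR adjusted p = 0.998 and 0.943). The ratio of Tigit to Cd226 in CPM per kilobase of the longest transcript was 0.454 and 0.992 with EnPGC-1, 0.692 and 0.961 with SGC-CBP30, 1.76 and 1.13 with Ctrl PIP, and 0.907 and 3.31 with DMSO. Replicate 1 of DMSO lay among the compounds on that ratio. In CPM alone, Tigit was below Cd226 in every library.

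Of 17 genes of inhibitory signalling, none had an unadjusted p under 0.05 with EnPGC-1 against DMSO (1.81% of all genes lower and 0.8% higher) and 4 were lower with SGC-CBP30 (2.82% lower and 1.57% higher). Ptpn6, which encodes the phosphatase SHP-1 that several of these receptors recruit, was at 147 and 155 CPM with EnPGC-1, 140 and 147 CPM with SGC-CBP30, 238 and 223 CPM with Ctrl PIP, and 170 and 277 CPM with DMSO. Its log2 difference from DMSO was -0.56 (SE 0.26) with EnPGC-1 and -0.64 (SE 0.26) with SGC-CBP30 (edgeR adjusted p = 0.998 and 0.943). Dok2, an adaptor that damps Ras signalling, was at 87.0 and 98.2 CPM with EnPGC-1, 64.7 and 70.5 CPM with SGC-CBP30, 106 and 117 CPM with Ctrl PIP, and 132 and 89.4 CPM with DMSO. Ptpn22 and Sh2d2a, the most abundant, overlapped between EnPGC-1 and DMSO. The list had a median of -0.10 with EnPGC-1 and 0.00 with SGC-CBP30.

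Of 12 genes that sort, shed or degrade the receptors, none had an unadjusted p under 0.05 in any of the 6 comparisons, and the medians lay between -0.01 and 0.12. Def6, which helps recycle CTLA-4 to the surface, differed from DMSO by 0.02 (SE 0.21) with EnPGC-1 and by -0.13 (SE 0.21) with SGC-CBP30. Fbxo38, the ubiquitin ligase subunit for PD-1, was at 103 and 88.4 CPM with EnPGC-1, 98.6 and 94.4 CPM with SGC-CBP30, 70.8 and 75.9 CPM with Ctrl PIP, and 95 and 70.6 CPM with DMSO. The adaptor genes Ap2m1 and Trat1 had log2 differences from DMSO of -0.16 (SE 0.26) and 0.27 (SE 0.18) with EnPGC-1.

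In the adenosine pathway, 8 of 9 genes were tested and Adora2b was not. Nt5e, which encodes CD73, the enzyme after CD39, was at 63.8 and 38.5 CPM with EnPGC-1, 38.7 and 37.3 CPM with SGC-CBP30, 28.6 and 38.0 CPM with Ctrl PIP, and 33.8 and 19.8 CPM with DMSO. Both EnPGC-1 libraries were above both of DMSO, with a log2 difference of 0.93 (SE 0.35, edgeR adjusted p = 0.998, unadjusted p = 0.0356), while Entpd1 differed in the other direction (-0.81, SE 0.38). Slc29a1, a nucleoside transporter, was at 59.5 and 55.8 CPM with EnPGC-1, 67.0 and 67.0 CPM with SGC-CBP30, 89.3 and 90.8 CPM with Ctrl PIP, and 64.4 and 91.1 CPM with DMSO. Its log2 difference between EnPGC-1 and Ctrl PIP was -0.64 (SE 0.21, edgeR adjusted p = 0.812, unadjusted p = 0.0194). Entpd5, the most abundant of the list, overlapped between EnPGC-1 and each other group.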

How the data were processed

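RNA-seq was made from 8 libraries (4 groups of 2) with an RNeasy column and TruSeq Stranded mRNA reagents, per the labels' protocols. The authors deposited whole-number counts per gene for 45777 Entrez gene IDs, 1 column per library. They also deposited regularized log2 values of 16442 genes, made over all 8 libraries. Per the submitters' processing notes, the tools were HISAT2, StringTie and DESeq2 and the build mm10. Versions, annotation and strand setting were not given in the sources used here. There were 0 columns of other samples. The header names of the log2 table stand 1 column to the left of their values, which was settled by correlation with the counts.

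The members and gene lists were chosen with earlier results of these data known. Counts were tested with edgeR 4.0.16 (R 4.3.3), with TMM scaling, filterByExpr by group, glmQLFit with robust estimation and glmQLFTest on group means over all 8 libraries, leaving 16750 genes and 4 residual degrees of freedom. Tests were two-sided, with Benjamini-Hochberg adjustment over all genes and a threshold of 0.05. The test was checked on simulated data with known fold changes. The simulated libraries were independent and had a smaller spread than these data, so that check does not show how the test behaves here. CPM used TMM library sizes, and likeness used log2 CPM with a prior count of 2. The common biological coefficient of variation was 0.415. Intervals cover the modelled spread between libraries.

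Symbols, positions and promoter sequences came from RefSeq on GRCm38.p6, which matched 99.8% of the IDs, and transcript lengths and GC content from GENCODE on GRCm38 (92.1% of the genes tested). Named genes were the 9 members, the 2 most abundant and the 2 with the smallest p over 4 groups in each list around them, and the 2 nearest genes of each member. Genes called by DESeq2 or by a count of 6 or fewer were named after their values were seen, as were Foxp3, Cd4, Cd226 and the other markers named singly. Markers of B cells, CD4 and regulatory T cells, NK cells, myeloid and dendritic cells, and erythroid cells and platelets were summed as a check of other cells. Alternatives were DESeq2 size factors, DESeq2 1.42.0, testing without the filter, a block for the replicate number, offsets for length and GC content (mgcv 1.9.3), only the 4 libraries compared, limma 3.58.1 on the log2 values, and libraries left out. Protein sequences were not used here.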

Additional observations from a re-analysis of the deposited data

How the results depend on the processing

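Among 738 values of the 9 genes in the 6 comparisons under other settings, 647 kept their direction and side of the threshold, 14 kept the direction and were called, and 77 changed sign. The values that changed sign were not called, and the widest of them was 1.69 (Havcr2, EnPGC-1 against SGC-CBP30). Cd160 kept its sign in each setting run for EnPGC-1 and for SGC-CBP30 against DMSO and against Ctrl PIP, as did Tigit and Btla. With 2 libraries a group, a range over left-out libraries limits how far any other value can be read, and Havcr2, with 20 to 170 counts, is limited by depth as well.

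In place of 0, DESeq2 called 18 genes for EnPGC-1 against DMSO, 2 for Ctrl PIP against DMSO, 63 for SGC-CBP30 against DMSO, 38 for EnPGC-1 against Ctrl PIP, 16 for EnPGC-1 against SGC-CBP30, 31 for SGC-CBP30 against Ctrl PIP and 87 over the 4 groups. The member called was 1 (Cd160) in each of SGC-CBP30 against DMSO, SGC-CBP30 against Ctrl PIP and the test over 4 groups. The fit of the 4 libraries of SGC-CBP30 and Ctrl PIP called 2470 genes and 2 members. With libraries left out, genes called ranged from 0 to 1095 (EnPGC-1 against DMSO), 0 to 2365 (Ctrl PIP against DMSO), 0 to 6314 (SGC-CBP30 against DMSO), 0 to 5183 (EnPGC-1 against Ctrl PIP), 0 to 883 (EnPGC-1 against SGC-CBP30) and 0 to 4379 (over 4 groups), and members called from 0 to 1, 0 to 2, 0 to 3, 0 to 3, 0 to 1 and 0 to 3. The upper ends came without the same-numbered library of both EnPGC-1 and DMSO. The cause was not tested.

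Replicate numbers are shared by the groups, but the labels do not say that a number marks a shared animal or day. Deviations of same-numbered libraries correlated with r = 0.67 between EnPGC-1 and DMSO, 0.23 between EnPGC-1 and SGC-CBP30, 0.23 between SGC-CBP30 and DMSO, -0.23 between EnPGC-1 and Ctrl PIP, -0.04 between SGC-CBP30 and Ctrl PIP and -0.25 between Ctrl PIP and DMSO, so the libraries were not treated as pairs. The replicate block called 0 genes and 0 members in each comparison and changed 2 signs, of Ctla4 in EnPGC-1 against DMSO (0.00) and Lag3 in EnPGC-1 against Ctrl PIP (-0.13). The block fits the same shift to all 4 groups, so it cannot show what pairing EnPGC-1 with DMSO alone would give. That pairing was not tested.

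Log2 differences also changed sign with length and GC offsets for Pdcd1 in EnPGC-1 against DMSO (0.10, and 0.10 with the block), Ctla4 in EnPGC-1 against DMSO (0.05, and 0.10 with the block), in SGC-CBP30 against DMSO (0.06, and 0.13) and in EnPGC-1 against SGC-CBP30 (-0.01, and -0.03), Btla in Ctrl PIP against DMSO (-0.03, and -0.02) and Cd200 in EnPGC-1 against DMSO (0.00 with the block). Ctla4 in EnPGC-1 against DMSO was 0.01 with no filter, with only its 4 libraries and with limma, and Lag3 in EnPGC-1 against Ctrl PIP was -0.05 with limma.

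With libraries left out, log2 differences in EnPGC-1 against DMSO ranged from -0.41 to 0.43 for Pdcd1, -0.28 to 0.32 for Ctla4, -1.33 to 0.20 for Lag3, -2.73 to 0.89 for Havcr2 and -0.45 to 0.19 for Cd200. In Ctrl PIP against DMSO they ranged from -0.54 to 0.32 for Pdcd1, -0.83 to 0.18 for Lag3, -0.40 to 0.29 for Cd160, 0.00 to 0.03 for Btla and -0.10 to 0.33 for Cd200. In SGC-CBP30 against DMSO they ranged from -0.36 to 0.50 for Pdcd1 and -0.29 to 0.22 for Ctla4. In EnPGC-1 against Ctrl PIP they ranged from -0.19 to 0.42 for Pdcd1, -0.92 to 0.58 for Lag3, -1.31 to 1.75 for Havcr2, -0.23 to 0.34 for Entpd1 and -0.57 to 0.06 for Cd200. In EnPGC-1 against SGC-CBP30 they ranged from -0.37 to 0.19 for Pdcd1, -0.08 to 0.21 for Ctla4, -0.74 to 0.77 for Lag3, -0.53 to 2.53 for Havcr2, -0.30 to 0.21 for Tigit and -0.16 to 0.48 for Cd200. In SGC-CBP30 against Ctrl PIP they ranged from -0.06 to 0.48 for Pdcd1 and -0.51 to 0.22 for Lag3.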
